A study of Rattus norvegicus with 23 samples.

Results

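Oxygen-glucose deprivation followed by reoxygenation (OGD/R) was compared with normoxia in primary rat brain endothelial cells grown in a co-culture with pericytes and astrocytes. The comparison rests on 12 of the 23 libraries of the series, 6 from OGD/R inserts and 6 from normoxia inserts, which were matched by sample title. Each library holds the RNA of the endothelial lysate of 1 culture insert. The remaining libraries came from OGD/R inserts given DMT (N,N-dimethyltryptamine) without or with BD1063, a sigma receptor antagonist, and entered the statistical model only to estimate the spread. The co-culture is a model of the blood-brain barrier, and OGD/R is a culture model of stroke with return of blood flow. The duration of deprivation and of reoxygenation, the strain, sex and age of the animals, and whether inserts came from separate cell isolations are not given in the sources used here. The p-values therefore measure the spread between these inserts, which may be technical.

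Brain endothelial cells line the capillaries of the brain and restrict passage into it by tight junctions, low transcytosis and selective transporters. When oxygen and glucose are withdrawn, such cells lose ATP and stop growing, and on their return they can resume growth, change their secreted matrix and display adhesion molecules and chemokines that recruit leukocytes. In the adult brain the endothelium hardly divides, whereas cultured endothelium does.

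Gene counts summed to between 13367918 and 17119247 reads per OGD/R library and between 15388914 and 18565166 reads per normoxia library. OGD/R 3 stood apart. Genes of noncoding RNA types took 2.54% of its counts (95% Wilson interval 2.53% to 2.55%, counting error only), against 0.0894% to 0.235% among the remaining OGD/R libraries and 0.0836% to 0.203% in normoxia, and 58.8% of its read total fell in genes, against 71.5% to 75.7% in the other 11 libraries. OGD/R 5 had the largest share of counts in ribosomal protein genes, 3.47%, against 2.11% to 2.58% among the remaining OGD/R libraries and 1.95% to 2.60% in normoxia. OGD/R 5 and normoxia 5 were also the libraries most often far from the rest of their group among the named genes. Results below are for all 6 OGD/R libraries, with the value without OGD/R 3 where it changes a call of a named gene. Leaving it out moved the number of called genes in any of the 37 gene lists by at most 2 in either direction.

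The libraries carried the markers of endothelium. Cdh5, the adhesion molecule of endothelial junctions, had 1906, 2017 and 2251 CPM in OGD/R libraries, against 1772, 2186 and 2258 CPM in normoxia libraries (here and below the lowest, median and highest of the 6 libraries, in CPM, the read count scaled to a common library size). Cldn5, the main claudin of brain capillaries, had 1205, 1643 and 2455 CPM in OGD/R libraries, against 1724, 1951 and 2079 CPM in normoxia libraries. The groups overlapped for both genes, and neither passed the test in edgeR (Cdh5 log2 fold change -0.04 ± 0.07 SE, edgeR adjusted p = 0.707; Cldn5 log2 fold change -0.16 ± 0.14 SE, edgeR adjusted p = 0.391). With limma voom and sample weights Cldn5 was called lower (-0.23, limma adjusted p = 0.0299). Some markers of astrocytes (Gfap, Aqp4, Slc1a2), leukocytes (Ptprc, Cx3cr1) and red cells were at or near 0, but other members of the astrocyte and leukocyte lists were expressed. The astrocyte list summed to 154 to 226 CPM in OGD/R libraries, against 148 to 164 CPM in normoxia libraries. Fibroblast markers summed to 136 to 416 CPM in OGD/R libraries, against 431 to 961 CPM in normoxia libraries. Mfsd2a, a lipid carrier of brain capillaries in vivo, was nearly absent. Abcb1a and Pecam1 matched no symbol of the table and were not used here.

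OGD/R changed the level of a large part of the transcriptome, mostly by small amounts. Of 13834 genes tested, 2608 rose and 2308 fell in OGD/R (35.5% in all, 18.9% higher and 16.7% lower, at an adjusted p under 0.05 in edgeR's quasi-likelihood test over all genes). These shares over all genes are the background for each count of list members below. The median size of a called change was 0.40 on the log2 scale. A change of at least 2-fold was seen in 153 called genes that rose and 241 that fell, and a change of at least 4-fold in 49 that rose and 30 that fell. In 16.4% of the tested genes the 6 OGD/R libraries did not overlap with the 6 normoxia libraries, with OGD/R above in 9.14% and below in 7.23%. In bulk RNA of this kind, a loss of cells of a type and a lower level per cell cannot be told apart.

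Without OGD/R 3, 2378 genes rose and 2297 fell among 13817 tested (33.8%, 17.2% higher and 16.6% lower). Of the called genes, 2322 that rose and 2172 that fell were called with and without it, and 0 were called in opposite directions. Called genes at least 2-fold higher numbered 153 with it and 106 without it, and those at least 2-fold lower 241 with it and 254 without it. Called genes at least 4-fold higher numbered 49 with it and 13 without it, and those at least 4-fold lower 30 with it and 34 without it. The number at least 4-fold higher also depended on other choices: it was 26, 27, 27 and 32 without normoxia 4, 2, 3 and 1, 10 with the 2 groups fitted alone, 14 with limma voom and sample weights, and 17 with a replicate block. When each of the 12 libraries was left out in turn, 1823 genes that rose and 1742 that fell were called every time. On the log2 of the deposited normalised values plus 1, which are scaled to a larger read total than the gene counts, limma called 1286 genes higher and 2336 lower, so that 35.5% of calls were higher, against 53.1% in edgeR. On that scale the median of all genes stood at -0.06.

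**Figure D1:**
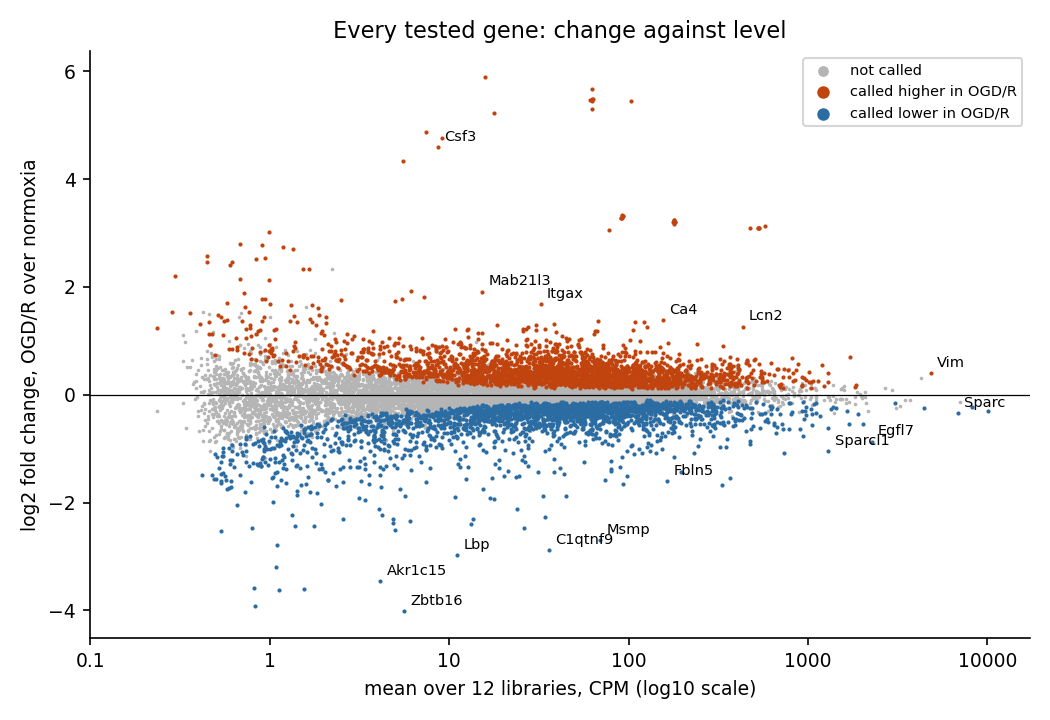
Log2 fold change of OGD/R over normoxia against the mean level over the 12 libraries (CPM, log scale) for the 13834 genes tested; red points were called higher (2608) and blue points lower (2308) in OGD/R. Most called genes lie within 2-fold, Csf3 and a group of noncoding RNA genes stand highest, and Zbtb16 stands among the lowest.

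Genes that copy DNA rose together. In the list of DNA replication genes, 37 of 37 tested genes rose and 0 fell, with a median log2 fold change of 0.93, against 18.9% of all tested genes called higher and a median of 0.01 over all genes. Without OGD/R 3 the count was 37 and 0 as well. Their summed level was 2828 to 3094 CPM in OGD/R libraries, against 1441 to 1908 CPM in normoxia libraries. The 4 promoters below are shown because these genes of the replication helicase and its loader rose and their promoters hold a motif of the E2F type, the factors known to switch on replication genes when cells enter S phase. They are RefSeq promoters of build GRCr8, from 250 bases before to 50 bases after the gene's start in the table, and read 5′ to 3′. Capitals mark the letters TTTCCCGC or TTTGGCGC on either strand.
Mcm5 promoter (chr19:13488563-13488862, + strand): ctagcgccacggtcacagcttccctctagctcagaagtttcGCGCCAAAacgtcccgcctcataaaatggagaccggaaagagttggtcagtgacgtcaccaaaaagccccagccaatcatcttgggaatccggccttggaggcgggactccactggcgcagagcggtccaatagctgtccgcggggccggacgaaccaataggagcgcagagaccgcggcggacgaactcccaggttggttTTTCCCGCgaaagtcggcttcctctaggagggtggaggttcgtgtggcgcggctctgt
Mcm3 promoter (chr9:30733697-30733996, - strand): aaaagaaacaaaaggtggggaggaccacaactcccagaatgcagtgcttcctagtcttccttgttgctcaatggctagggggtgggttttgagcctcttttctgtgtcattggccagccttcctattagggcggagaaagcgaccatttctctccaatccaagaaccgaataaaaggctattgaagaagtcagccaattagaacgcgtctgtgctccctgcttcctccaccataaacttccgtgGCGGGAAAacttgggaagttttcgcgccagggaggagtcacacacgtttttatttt
Gins1 promoter (chr3:160184670-160184969, + strand): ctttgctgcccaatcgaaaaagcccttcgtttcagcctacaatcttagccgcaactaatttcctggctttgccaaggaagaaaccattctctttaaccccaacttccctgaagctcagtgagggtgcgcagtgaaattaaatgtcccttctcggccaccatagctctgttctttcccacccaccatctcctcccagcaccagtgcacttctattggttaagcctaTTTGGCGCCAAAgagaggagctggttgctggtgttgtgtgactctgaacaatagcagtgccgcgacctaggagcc
Cdt1 promoter (chr19:67528999-67529298, + strand): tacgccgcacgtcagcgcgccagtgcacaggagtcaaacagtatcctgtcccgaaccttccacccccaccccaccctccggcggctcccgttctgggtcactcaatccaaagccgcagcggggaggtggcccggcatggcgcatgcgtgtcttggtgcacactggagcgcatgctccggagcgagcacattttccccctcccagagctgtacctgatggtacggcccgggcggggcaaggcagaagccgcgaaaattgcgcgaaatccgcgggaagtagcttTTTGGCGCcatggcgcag
Of the 37 replication genes, 31 matched a promoter in that table by symbol, and 13 motifs were searched on both strands. TTTCCCGC was found in 5 of these promoters (16.1%), against 1.03% of all 27457 promoters in the table. TTTGGCGC was found in 8 (25.8%), against 0.521% of all, and 12 (38.7%) held at least 1 of the motifs, against 1.53% of all. In Gins1 the matches on the 2 strands overlap in a palindrome. CCAAT, a short and common promoter element, was found in 18 (58.1%), against 37.7% of all. TGACNNNGC was found in 5 (16.1%, against 12.2% of all) and CACGTG in 3 (9.68%, against 6.65%). TGACGTCA (1.91% of all), TTGCGTG (1.19%) and TACGTG (3.49%) were found in 1 promoter each (3.23%). TTTGAA was found in 3 (9.68%, against 18.1% of all) and GGAATG in 2 (6.45%, against 13.9%). Of the 31, 0 held TGACTCA (4.53% of all), the motif GTAAACA (3.76%) or the NF-kappaB motif (0.371%). From TGACNNNGC on, these counts are too small to call a motif more or less frequent in the list. The comparison was with all 27457 promoters, not only those of genes tested here, and the share of G and C bases was not matched. These are matches of letters, without a measure of binding, and none was tested. The same count was not made for genes called at 1.5-fold or more, since 60.7% of those that rose and 68.4% of those that fell had a promoter in the table, under the 80% needed.

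Mcm5, a subunit of the replicative helicase, had 156, 176 and 207 CPM in OGD/R libraries, against 65.9, 73.4 and 83.6 CPM in normoxia libraries. Its OGD/R libraries all lay above normoxia (log2 fold change 1.25 ± 0.07 SE, edgeR adjusted p = 6.2e-12; 1.23 without OGD/R 3). Mcm3, a partner in the same ring, had 131, 148 and 161 CPM in OGD/R libraries, against 56.4, 62.6 and 75.6 CPM in normoxia libraries and did not overlap either (log2 fold change 1.19 ± 0.07 SE, edgeR adjusted p = 1.06e-11). Gins1, part of the complex that activates the helicase, had 21.8, 26.5 and 30.9 CPM in OGD/R libraries, against 8.14, 9.86 and 17.1 CPM in normoxia libraries (log2 fold change 1.2995 ± 0.14 SE, edgeR adjusted p = 1.96e-07). The highest normoxia value was that of normoxia 5, and it still lay below every OGD/R library. Cdt1, which loads the helicase, rose with a log2 fold change of 1.20, and Cdc6, its partner in loading, with 1.21. Mcm4 (0.93), Fen1, the flap nuclease of lagging-strand synthesis (1.18), and Pcna, the sliding clamp (0.93), rose as well. Rpa1, the single-strand binding protein, was among the genes with the smallest p (124 to 145 CPM under OGD/R against 75.4 to 87.8 CPM under normoxia).

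Genes around replication followed. Zfp367, a zinc finger factor, was among the genes with the smallest p, at 70.6, 73.4 and 75.6 CPM in OGD/R libraries, against 31.9, 36.3 and 36.6 CPM in normoxia libraries (log2 fold change 1.04 ± 0.05 SE, edgeR adjusted p = 1.34e-12). Clspn and Timeless, which guard the replication fork, had log2 fold changes of 1.31 and 1.17. Ccne1, the cyclin that starts S phase, had 33.1 to 44.3 CPM under OGD/R against 13.9 to 19 CPM under normoxia (log2 fold change 1.26). In the chromatin assembly list, 23 of 27 tested genes, out of 28 listed, rose and 0 fell, with a median log2 fold change of 0.61. Chaf1a, a histone chaperone that works at the fork, had 75.3, 88.1 and 110.3 CPM in OGD/R libraries, against 35.9, 39.4 and 45 CPM in normoxia libraries (log2 fold change 1.18 ± 0.08 SE, edgeR adjusted p = 2.44e-10). Dnmt1 and Uhrf1, which copy DNA methylation onto the new strand, rose by 0.80 and 1.13 on the log2 scale. Cdkn1c, a cyclin-dependent kinase inhibitor, was low throughout and fell to 0.199 to 0.704 CPM under OGD/R against 1.76 to 2.8 CPM under normoxia (log2 fold change -2.23). Btg2, an antiproliferative gene, fell to 294 to 365 CPM under OGD/R against 549 to 650.5 CPM under normoxia (log2 fold change -0.90 ± 0.06 SE, edgeR adjusted p = 4.56e-11). Other genes of cell cycle arrest were not counted here.

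Genes that make ribosomes and nucleotides rose too. For ribosome biogenesis, 34 of 41 tested genes, out of 42 listed, rose and 0 fell, with a median log2 fold change of 0.44. Nop56, a core protein of box C/D particles that modify ribosomal RNA, had 132, 144 and 169 CPM in OGD/R libraries, against 78.8, 83.1 and 94.9 CPM in normoxia libraries (log2 fold change 0.79 ± 0.06 SE, edgeR adjusted p = 1.84e-10), and Tsr1, a factor of the small subunit, had a log2 fold change of 0.54. For nucleotide synthesis, 18 of 23 tested genes, out of 24 listed, rose and 1 fell, with a median log2 fold change of 0.44. Ppat, which starts purine synthesis, had 52.2 to 68.6 CPM under OGD/R against 34.8 to 40.9 CPM under normoxia, Gmps, which makes GMP, 129.9 to 138 CPM under OGD/R against 86.4 to 106 CPM under normoxia, and Umps, which makes UMP, 56.1 to 70 CPM under OGD/R against 30.4 to 41.2 CPM under normoxia. Xdh, which degrades purines to uric acid, went the other way, with 28.5, 37.5 and 42.4 CPM in OGD/R libraries, against 81, 116 and 124 CPM in normoxia libraries (log2 fold change -1.58 ± 0.10 SE, edgeR adjusted p = 8.69e-11).

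For serine and one-carbon metabolism, 9 of 20 tested genes, out of 22 listed, rose and 0 fell, with a median log2 fold change of 0.19. Mthfd1 and Mthfd1l, the folate enzymes of cytosol and mitochondria, had log2 fold changes of 0.81 and 0.71, and Ahcy, which clears S-adenosylhomocysteine, 0.76. On the polyamine list 8 of 13 tested genes, out of 14 listed, rose and 3 fell. Odc1 and Srm, which make putrescine and spermidine, and Mtap, which salvages the by-product, rose (0.44, 0.79 and 0.61 on the log2 scale). Sat1, which acetylates polyamines for export and breakdown, fell to 479 to 582 CPM under OGD/R against 704 to 885 CPM under normoxia (log2 fold change -0.59).

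Genes of transport between nucleus and cytoplasm rose, since 22 of 30 tested genes, out of 31 listed, rose and 0 fell, with a median log2 fold change of 0.36. Ran, the GTPase that gives transport its direction, had 506 to 716 CPM under OGD/R against 314 to 448 CPM under normoxia, and Ranbp1, its partner, a log2 fold change of 0.80. Nup107 and Nup93, scaffold proteins of the pore, had 0.61 and 0.55, and Kpna2, an importin, 0.46. Among splicing factors 29 of 36 tested genes rose and 2 fell, with a median log2 fold change of 0.29. Snrpa, a protein of the U1 particle, and Hnrnpab, an RNA-binding protein, had log2 fold changes of 0.79 and 0.55.

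In mitochondria, 22 of 27 tested genes, out of 28 listed, rose and 0 fell, with a median log2 fold change of 0.29 on the list of import and protein quality control. Hspd1 and Hspe1, the chaperonin of the matrix and its lid, had log2 fold changes of 0.67 and 0.72, and Tomm40, the import channel, 0.46. On the TCA cycle list 17 of 31 tested genes, out of 32 listed, rose and 3 fell, with a median log2 fold change of 0.19. Fh and Got2 rose (0.50 and 0.48). Entry points to the cycle are among those that fell, Pc, which makes oxaloacetate from pyruvate (17.5 to 26.9 CPM under OGD/R against 31.6 to 37.9 CPM under normoxia), and Pdha1, of pyruvate dehydrogenase (132 to 161 CPM under OGD/R against 164 to 195 CPM under normoxia). Pdk4, the kinase that switches pyruvate dehydrogenase off, fell as well, to 7.02 to 15.1 CPM under OGD/R against 17 to 29.3 CPM under normoxia (log2 fold change -1.28). For traffic from the endoplasmic reticulum to the Golgi, 11 of 28 tested genes, out of 31 listed, rose and 0 fell, with a median log2 fold change of 0.10. Ssr1 and Sec61a1, of the translocon, had log2 fold changes of 0.50 and 0.26.

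**Figure D2:**
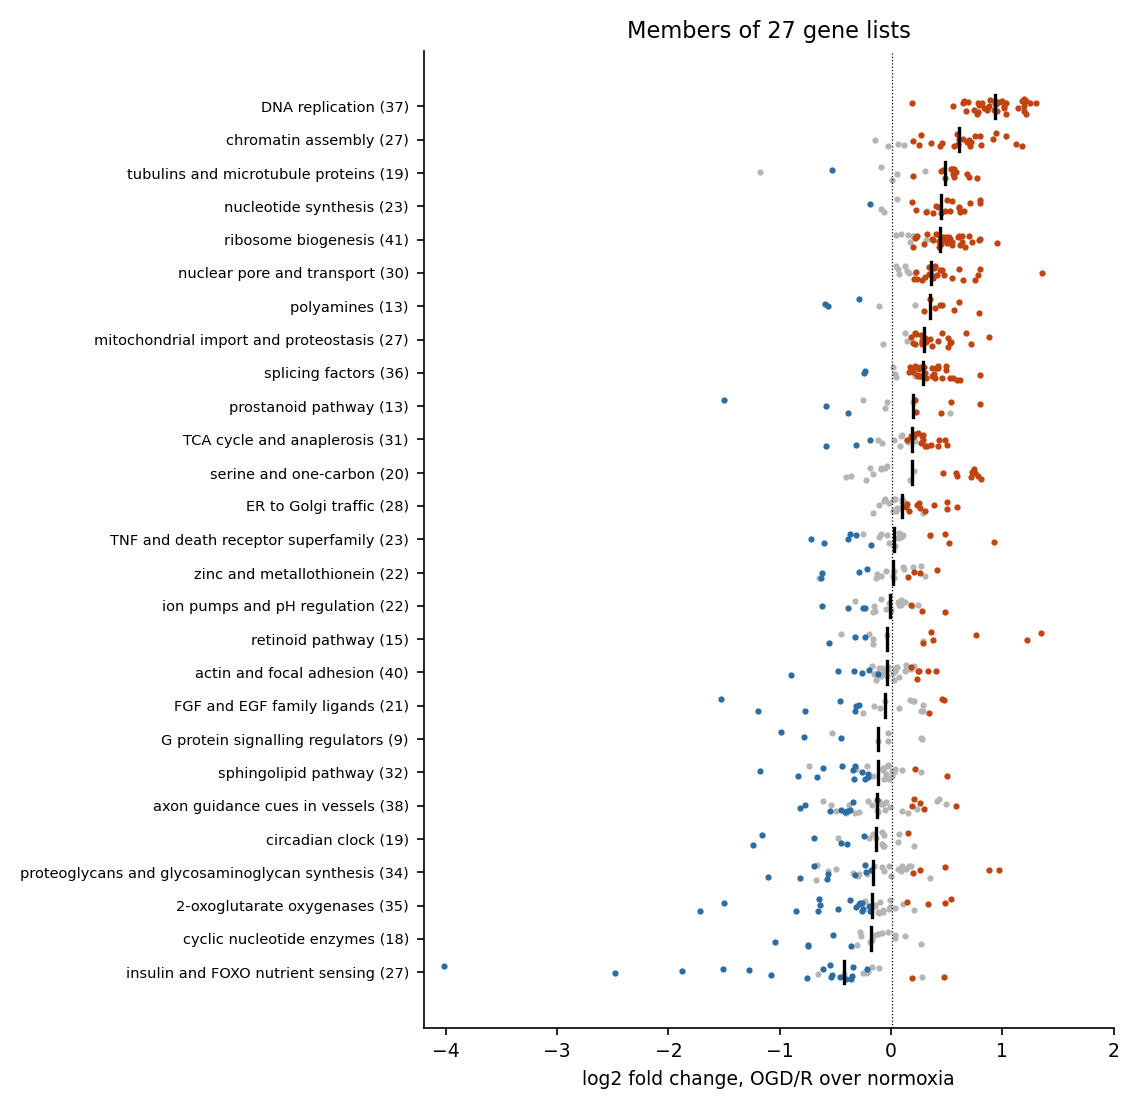
Log2 fold change of OGD/R over normoxia for each tested member of 27 gene lists, ordered by the list median (black bar), with the number tested in brackets; red was called higher, blue called lower and grey not called, and the dotted line is the median of all genes. All 37 DNA replication genes lie to the right of the line, and the insulin and FOXO list, with Zbtb16 at -4.01, reaches farthest to the left.

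Tubulin genes rose at high levels. On the list of tubulins and microtubule proteins 13 of 19 tested genes, out of 20 listed, rose and 1 fell, with a median log2 fold change of 0.49. Tubb5 had 1939, 2123 and 2235 CPM in OGD/R libraries, against 1173, 1264 and 1572 CPM in normoxia libraries (log2 fold change 0.70 ± 0.06 SE, edgeR adjusted p = 1.44e-08). Tuba1b, Tuba1a, Tubb6 and the nucleating Tubg1 had log2 fold changes of 0.68, 0.57, 0.59 and 0.53. Tuba1a and Tuba1b are near-identical copies, so how reads divide between them is uncertain. On the actin and focal adhesion list 6 of 40 tested genes rose and 6 fell, with a median log2 fold change of -0.04. Tpm3, a tropomyosin, and Actn4, an actin crosslinker, rose (0.41 and 0.24; Actn4 was not called on the deposited scale, limma adjusted p from 0.154 to 0.198), while Tns1, which links integrins to actin, fell to 52.2 to 104 CPM under OGD/R against 109.5 to 206 CPM under normoxia (log2 fold change -0.90).

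Genes for signals that call and bind leukocytes were among those that rose, by unequal amounts. Cxcl1 had a log2 fold change of 1.01, and that of Sele ran from 0.89 to 1.04 with 1 library left out. Other chemokines and adhesion molecules were not counted here. Csf3, the cytokine that mobilises neutrophils, had the largest fold rise of the called protein-coding genes, with 4.99, 15.7 and 29.4 CPM in OGD/R libraries, against 0.522, 0.618 and 0.938 CPM in normoxia libraries (log2 fold change 4.60 ± 0.52 SE, edgeR adjusted p = 3.47e-07; 4.57 without OGD/R 3). Every OGD/R library lay above every normoxia library. Cxcl6 and Cxcl1, chemokines, had 52.6 to 164 CPM under OGD/R against 28.5 to 43.8 CPM under normoxia and 43.3 to 101 CPM under OGD/R against 30 to 43 CPM under normoxia. Selp and Sele, the selectins on which leukocytes roll, had 28.8 to 54.5 CPM under OGD/R against 11.4 to 21.3 CPM under normoxia and 37.5 to 60 CPM under OGD/R against 18.3 to 30.4 CPM under normoxia. C3, the central complement protein, had 4.1, 7.45 and 22.3 CPM in OGD/R libraries, against 1.12, 2.92 and 3.45 CPM in normoxia libraries (log2 fold change 1.93 ± 0.40 SE, edgeR adjusted p = 0.000584). Lcn2, a siderophore-binding protein of inflamed tissue, had 325, 487 and 1360 CPM in OGD/R libraries, against 221, 255 and 298 CPM in normoxia libraries (log2 fold change 1.27 ± 0.25 SE, edgeR adjusted p = 0.000361). Its highest value was that of OGD/R 5, and its groups did not overlap.

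Other proteins of innate immunity fell. Lbp, which hands bacterial lipopolysaccharide to its receptor, had 1.43, 2.08 and 4.67 CPM in OGD/R libraries, against 15.9, 19.4 and 23.6 CPM in normoxia libraries (log2 fold change -2.98 ± 0.24 SE, edgeR adjusted p = 1.76e-09). C4a and C4b, the complement component after C1, had log2 fold changes of -2.40 and -2.23, and as near-identical copies their division is uncertain. Tril, an accessory of toll-like receptors, fell to 5.31 to 9.54 CPM under OGD/R against 16.1 to 31.2 CPM under normoxia. On the TNF superfamily list 4 of 23 tested genes, out of 38 listed, rose and 6 fell. These shares were 17.4% and 26.1%, against 18.9% and 16.7% of all tested genes, and the difference was not tested. Tnfsf18, a costimulatory ligand of endothelium, rose to 27.3 to 46.2 CPM under OGD/R against 16 to 21.2 CPM under normoxia. Tnfsf10, a death ligand, and Traf5, a receptor adaptor, fell (-0.72 and -0.60 on the log2 scale).

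Some genes that rose are best known from myeloid cells. Itgax, the integrin CD11c, had 43.6, 49.4 and 56.4 CPM in OGD/R libraries, against 14.1, 14.9 and 18.3 CPM in normoxia libraries (log2 fold change 1.68 ± 0.08 SE, edgeR adjusted p = 1.34e-12). On the list of microglia and leukocyte markers, 3 of 9 tested genes, out of 14 listed, rose and 0 fell, with a median log2 fold change of 1.44. These are too few genes to set against the shares over all genes. The summed level of the list was 12.8 to 38.1 CPM in OGD/R libraries, against 11.1 to 19.8 CPM in normoxia libraries, with Ptprc, Cx3cr1, P2ry12, Cd74 and Tyrobp too low to be tested. Lyz2, a lysozyme, had 0.6247, 9.06 and 16.4 CPM in OGD/R libraries, against 1.19, 2.05 and 4.65 CPM in normoxia libraries, and the groups overlapped (log2 fold change 1.77 ± 0.56 SE, edgeR adjusted p = 0.0172). Without OGD/R 1 it was not called (1.47, edgeR adjusted p = 0.0529). Itgam had 0.875 to 1.41 CPM under OGD/R against 0.176 to 0.649 CPM under normoxia. C1qa had 0.125 to 3.46 CPM under OGD/R against 0.312 to 0.973 CPM under normoxia (log2 fold change 1.68 ± 0.58 SE, edgeR adjusted p = 0.027) and was not called without OGD/R 3 (1.56, edgeR adjusted p = 0.0525), nor without OGD/R 1, OGD/R 2, normoxia 3, normoxia 4 or normoxia 6. What part such cells have in the rises of Csf3, C3 or Itgax was not tested. Lgals3bp, a secreted scavenger-type protein, rose to 66.7 to 82.3 CPM under OGD/R against 36.5 to 43.9 CPM under normoxia (log2 fold change 0.86).

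Some enzymes of foreign compounds and of retinoic acid were among the largest rises. Among all 26 tested protein-coding genes whose symbol starts with Cyp and a number, 6 rose and 9 fell. These shares were 23.1% and 34.6%, against 18.9% and 16.7% of all tested genes. Cyp1a1 and Cyp1b1, classic targets of the aryl hydrocarbon receptor, had 126, 154 and 192 CPM in OGD/R libraries, against 39.4, 64.3 and 69.6 CPM in normoxia libraries for Cyp1a1 (log2 fold change 1.35 ± 0.14 SE, edgeR adjusted p = 5.16e-08), and 7.87 to 18.5 CPM under OGD/R against 1.83 to 5.86 CPM under normoxia for Cyp1b1. Cyp26b1, which degrades retinoic acid, had 145, 175 and 199 CPM in OGD/R libraries, against 57.5, 66.8 and 81 CPM in normoxia libraries (log2 fold change 1.35 ± 0.09 SE, edgeR adjusted p = 5.48e-11). Aldh1a3, which makes retinoic acid, had 32.6 to 59.9 CPM under OGD/R against 16.6 to 26.5 CPM under normoxia (log2 fold change 1.22). On the whole retinoid list 6 of 15 tested genes, out of 27 listed, rose and 3 fell, and the receptor Rarg was one of those that fell (-0.56). Ca4, a carbonic anhydrase of the capillary surface, had 175, 216 and 321 CPM in OGD/R libraries, against 82.1, 85.8 and 91.9 CPM in normoxia libraries (log2 fold change 1.39 ± 0.13 SE, edgeR adjusted p = 1.79e-08). Mab21l3, of the Mab-21 family, had 15 to 38.4 CPM under OGD/R against 3.33 to 8.99 CPM under normoxia, Myh4, a muscle myosin, 6.72 to 8.66 CPM under OGD/R against 1.84 to 2.81 CPM under normoxia, and Etv4, an ETS factor, 29.4 to 41.6 CPM under OGD/R against 13.9 to 17.9 CPM under normoxia. These groups did not overlap.

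**Figure D3:**
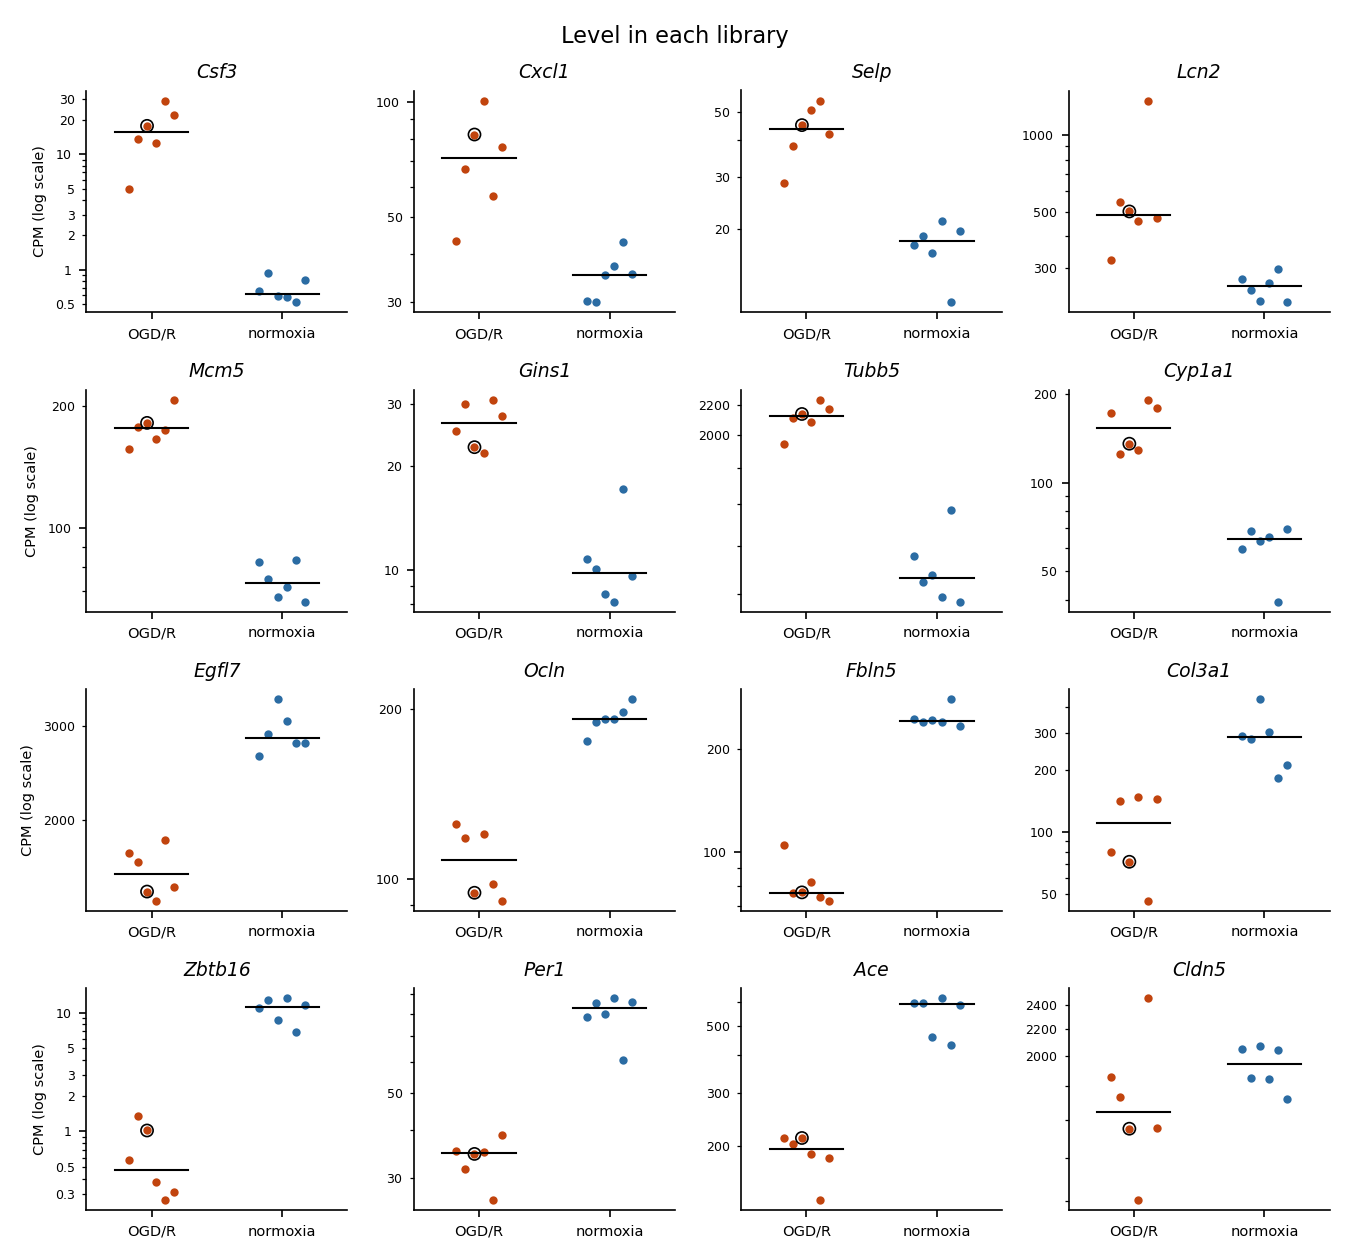
Level of 16 genes in each library (CPM, log scale), OGD/R on the left and normoxia on the right, with the median as a bar and OGD/R 3 circled. Only Cldn5 overlaps between the groups among the 16, OGD/R 5 is the high point of Lcn2, and normoxia 5 is the high point of Gins1.

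The largest falls included genes of FOXO and nutrient control. Zbtb16, a zinc finger factor that rises with glucocorticoid and FOXO activity, had 0.265, 0.475 and 1.36 CPM in OGD/R libraries, against 6.92, 11.1 and 13.2 CPM in normoxia libraries (log2 fold change -4.01 ± 0.28 SE, edgeR adjusted p = 1.65e-10; -4.17 without OGD/R 3). Depp1, a FOXO target that affects autophagy, had 3.25, 8.61 and 10.1 CPM in OGD/R libraries, against 38.9, 42.7 and 51.3 CPM in normoxia libraries (log2 fold change -2.48 ± 0.17 SE, edgeR adjusted p = 1.44e-10). On the list of insulin and FOXO nutrient sensing 2 of 27 tested genes, out of 29 listed, rose and 17 fell, with a median log2 fold change of -0.43, against 16.7% of all tested genes called lower. Txnip, which binds thioredoxin and limits glucose uptake, had 397, 478 and 526 CPM in OGD/R libraries, against 865, 999.6 and 1117 CPM in normoxia libraries (log2 fold change -1.08 ± 0.08 SE, edgeR adjusted p = 1.65e-10). Ddit4, an inhibitor of mTORC1, and Pik3ip1, an inhibitor of PI3 kinase, had log2 fold changes of -1.51 and -1.88. Foxo3 itself fell with overlapping groups (8.9 to 14.6 CPM under OGD/R against 11.4 to 21.8 CPM under normoxia; log2 fold change -0.61). Arrdc4, a relative of Txnip, was 1 of the 2 genes that rose (0.48).

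Part of the clock genes and several early-response factors fell. On the circadian list 1 of 19 tested genes, out of 21 listed, rose and 6 fell, with a median log2 fold change of -0.13. These shares were 5.26% and 31.6%, against 18.9% and 16.7% of all tested genes. Per1, a repressor of the clock, had 26.3, 34.8 and 38.9 CPM in OGD/R libraries, against 60.8, 82.7 and 87.8 CPM in normoxia libraries (log2 fold change -1.24 ± 0.10 SE, edgeR adjusted p = 3.28e-09), and Per2, its paralogue, had a log2 fold change of -1.16. The activators Arntl and Npas2 fell as well (-0.45 and -0.69). Fos, a subunit of AP-1, had 1.297, 1.95 and 2.61 CPM in OGD/R libraries, against 4.55, 6.36 and 29.9 CPM in normoxia libraries (log2 fold change -2.33 ± 0.38 SE, edgeR adjusted p = 4.34e-05). Its normoxia maximum was that of normoxia 5, and without that library the log2 fold change was -1.62. Sik1, a kinase induced by cyclic AMP, fell to 40.9 to 56.4 CPM under OGD/R against 107 to 143 CPM under normoxia (log2 fold change -1.34). Klf4, Klf2, Klf9, Klf6 and Klf3, Krüppel-like factors of which Klf2 and Klf4 hold endothelium in its quiescent state, had log2 fold changes of -0.88, -0.63, -0.71, -0.44 and -0.45. Their groups overlapped for Klf2 alone among these 5.

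Hif1a, the oxygen-regulated factor, had 388, 418 and 481 CPM in OGD/R libraries, against 409, 461.6 and 490.1 CPM in normoxia libraries and was not called (log2 fold change -0.11 ± 0.08 SE, edgeR adjusted p = 0.304). Vegfa, its target and the main growth factor of endothelium, was lower in OGD/R, with 23.5, 30.5 and 35.2 CPM in OGD/R libraries, against 42.9, 45.9 and 52.4 CPM in normoxia libraries (log2 fold change -0.66 ± 0.09 SE, edgeR adjusted p = 6e-06). The enzymes that use oxygen and 2-oxoglutarate included more falls than rises, as 4 of 35 tested genes, out of 37 listed, rose and 16 fell, with a median log2 fold change of -0.17. The falls included histone demethylases, with log2 fold changes of -0.85 for Kdm7a, -0.66 for Kdm6b, -0.65 for Kdm5b and -0.64 for Kdm4b. Kdm4b had 37 to 45.2 CPM under OGD/R against 57.3 to 74.8 CPM under normoxia. The collagen-modifying P3h2, P4ha3 and Plod1 fell too, with Plod1 at 336 to 377 CPM under OGD/R against 475 to 541 CPM under normoxia (log2 fold change -0.47) and P3h2 at 1.66 to 2.45 CPM under OGD/R against 5.15 to 7.42 CPM under normoxia (log2 fold change -1.71). P4ha3 was near the limit of the filter (0.192 to 0.53 CPM under OGD/R against 0.326 to 1.7 CPM under normoxia).

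Several genes of the matrix fell. Fbln5, an organiser of elastic fibres, had 72.4, 76.3 and 105 CPM in OGD/R libraries, against 232, 240.5 and 279 CPM in normoxia libraries (log2 fold change -1.60 ± 0.09 SE, edgeR adjusted p = 5.78e-12). Its groups were far from overlapping. Sparc and Sparcl1, collagen-binding matrix proteins, had 5342 to 6381 CPM under OGD/R against 7351 to 7975 CPM under normoxia and 703 to 960.5 CPM under OGD/R against 1667 to 1839 CPM under normoxia. Col4a1 and Col4a2, the collagens of the basement membrane, had 6298 to 8562 CPM under OGD/R against 8041 to 9451 CPM under normoxia and 3076 to 4677 CPM under OGD/R against 4074 to 5394 CPM under normoxia. Both overlapped (log2 fold change -0.23 and -0.24). Col4a2 was not called when any 1 of OGD/R 1, 4 or 5 or normoxia 2, 4 or 6 was left out (edgeR adjusted p up to 0.087). Among all 26 tested genes whose symbol starts with Col and a number, 2 of 26 rose and 18 fell, and the rest were not called. These shares were 7.69% and 69.2%, against 18.9% and 16.7% of all tested genes. The 2 that rose were Col15a1 (361 to 509 CPM under OGD/R against 224 to 329.6 CPM under normoxia) and Col5a3 (37.1 to 114 CPM under OGD/R against 42.9 to 60.1 CPM under normoxia). The groups overlapped for Col5a3.

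Bcam, a receptor for laminin, had 102, 106 and 128 CPM in OGD/R libraries, against 227, 248 and 261 CPM in normoxia libraries (log2 fold change -1.15 ± 0.06 SE, edgeR adjusted p = 5.78e-12). Igfbp5 and Igfbp7, which bind insulin-like growth factors in the matrix, had log2 fold changes of -2.12 and -0.62. Chrd, an antagonist of bone morphogenetic proteins, fell to 15.3 to 25.8 CPM under OGD/R against 51 to 62.7 CPM under normoxia, and Mmrn1, a multimerin stored with von Willebrand factor, to 5.91 to 9.54 CPM under OGD/R against 22.8 to 34.1 CPM under normoxia. On the proteoglycan list 5 of 34 tested genes, out of 40 listed, rose and 9 fell. These shares were 14.7% and 26.5%, against 18.9% and 16.7% of all tested genes, and the difference was not tested. Chst11 and Ext1, which build chondroitin and heparan sulfate, and Sdc1 rose (0.97, 0.49 and 0.88). Bgn, Sulf2 and Sdc2 fell (-1.10, -0.69 and -0.82).

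The fibroblast markers that fell are matrix genes themselves, and Col3a1 and Col1a1 were already counted among the Col genes above. Pdgfra, the tested marker that is not a matrix gene, was not called (log2 fold change -0.46). Of 11 listed, 4 passed the filter, and 3 of them fell. Their summed level was 136 to 416 CPM in OGD/R libraries, against 431 to 961 CPM in normoxia libraries, and Dpt, Slc6a13 and Fmod were at 0 in all 12 libraries. Col3a1 had 46.4, 110.3 and 148 CPM in OGD/R libraries, against 182, 287 and 439 CPM in normoxia libraries (log2 fold change -1.44 ± 0.33 SE, edgeR adjusted p = 0.00166), Col1a1 68.7 to 253 CPM under OGD/R against 196 to 464 CPM under normoxia, and Fbln1 17.3 to 23 CPM under OGD/R against 32.6 to 44 CPM under normoxia. Their part in the falls of the matrix genes was not tested. On the pericyte and smooth muscle list, 1 of 9 tested genes, out of 15 listed, rose and 1 fell. This list and the other marker lists of this paragraph hold too few tested genes to set against the shares over all genes. Pdgfrb, the receptor that defines pericytes, fell to 3.01 to 7.06 CPM under OGD/R against 6.13 to 14.7 CPM under normoxia, Kcnj8 rose to 0.704 to 2.06 CPM under OGD/R against 0.249 to 0.595 CPM under normoxia, and Acta2 was not called (28.4 to 67.5 CPM under OGD/R against 28.4 to 55.2 CPM under normoxia), although it was called higher without normoxia 3 (0.66, edgeR adjusted p = 0.0451) and with the 2 groups fitted alone without OGD/R 3 (0.61, edgeR adjusted p = 0.0165). For astrocyte markers, 1 of 4 tested genes, out of 12 listed, rose and 2 fell, of which Aldoc and Fgfr3 fell (-0.52 and -1.53) and Gja1 rose (0.30). Of oligodendrocyte markers 0 of 3 tested genes, out of 9 listed, rose and 1 fell, with Cnp at 44.2 to 55 CPM under OGD/R against 53.9 to 59.2 CPM under normoxia and Pdgfra not called (1.09 to 4.85 CPM under OGD/R against 2.41 to 8.27 CPM under normoxia). Of neuron markers 0 of 2 tested genes, out of 9 listed, rose and 0 fell, with Tubb3 at 1.73 to 3.12 CPM under OGD/R against 1.37 to 2.52 CPM under normoxia and Stmn2 at 0.118 to 1 CPM under OGD/R against 0.216 to 4.99 CPM under normoxia. Of choroid plexus markers only Clic6 was tested (0.812 to 1.53 CPM under OGD/R against 0.998 to 1.89 CPM under normoxia), and of red cell markers none.

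Vessel genes fell in part. Of the markers of brain endothelium 2 of 16 tested genes, out of 19 listed, rose and 7 fell, with a median log2 fold change of -0.16. These shares were 12.5% and 43.8%, against 18.9% and 16.7% of all tested genes. Egfl7, a secreted endothelial factor, had 1408, 1582 and 1829 CPM in OGD/R libraries, against 2638, 2841 and 3369 CPM in normoxia libraries (log2 fold change -0.87 ± 0.09 SE, edgeR adjusted p = 5.41e-08). Ocln, the tight junction protein occludin, had 91.6, 108 and 125 CPM in OGD/R libraries, against 175, 192 and 208 CPM in normoxia libraries and did not overlap (log2 fold change -0.83 ± 0.10 SE, edgeR adjusted p = 5.44e-07). Slco1a4, an anion carrier of the barrier, and Abcg2, an efflux pump, had log2 fold changes of -1.62 and -1.22. Kdr, the receptor for Vegfa, rose to 369.9 to 505 CPM under OGD/R against 243 to 325 CPM under normoxia (log2 fold change 0.50). Ace, which makes angiotensin II, had 132, 195 and 212 CPM in OGD/R libraries, against 432, 591 and 618 CPM in normoxia libraries (log2 fold change -1.54 ± 0.15 SE, edgeR adjusted p = 2.86e-08). Aqp1, a water channel, fell to 0.0784 to 1.18 CPM under OGD/R against 2.22 to 4.99 CPM under normoxia, and Nox4, an oxidase that makes hydrogen peroxide, to 76.1 to 97.9 CPM under OGD/R against 164 to 196 CPM under normoxia (log2 fold change -1.04). Myrip and Rph3al, which act in the release of stored granules, had log2 fold changes of -1.48 and -1.56.

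Secreted factors and lipid carriers were among the falls. C1qtnf9, a relative of adiponectin, had the smallest p of all genes, with 6.91, 7.9 and 11.4 CPM in OGD/R libraries, against 50.6, 63.8 and 71.9 CPM in normoxia libraries (log2 fold change -2.88 ± 0.11 SE, edgeR adjusted p = 2.02e-14). Msmp, a small secreted protein, had 14.1, 17.7 and 25.6 CPM in OGD/R libraries, against 96.9, 119 and 141 CPM in normoxia libraries (log2 fold change -2.69 ± 0.15 SE, edgeR adjusted p = 5.78e-12). Pltp, which moves phospholipid between lipoproteins, Scarb1, the receptor of high-density lipoprotein, and Fabp4, a fatty acid binding protein, had log2 fold changes of -1.88, -0.75 and -2.13. Cp, the copper-bound ferroxidase, fell to 36.8 to 51.9 CPM under OGD/R against 94.5 to 167 CPM under normoxia, and Galnt15, which starts O-glycans, to 7.95 to 13.9 CPM under OGD/R against 41.6 to 66.3 CPM under normoxia. Akr1c15, an aldo-keto reductase, had 0.373, 0.55 and 1.47 CPM in OGD/R libraries, against 6.11, 7.06 and 11.1 CPM in normoxia libraries (log2 fold change -3.46 ± 0.28 SE, edgeR adjusted p = 1.76e-09).

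Inmt is the enzyme known to methylate tryptamine to DMT, the compound given to other inserts of the series. It had 0.118, 0.591 and 4.04 CPM in OGD/R libraries, against 0.913, 3.63 and 19.8 CPM in normoxia libraries, with overlapping groups (log2 fold change -2.37 ± 0.68 SE, edgeR adjusted p = 0.00921). It ranged from -2.96 to -1.88 with 1 library left out, was -2.83 without OGD/R 3, and was not called with the 2 groups fitted alone (edgeR adjusted p = 0.078) or with limma voom and sample weights (limma adjusted p = 0.0658). Within normoxia its lowest and highest libraries differed more than the group medians.

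The signalling lists below are read beside the 18.9% of all tested genes called higher and 16.7% called lower. For sphingolipids, 2 of 32 tested genes, out of 37 listed, rose and 12 fell, with a median log2 fold change of -0.12. The receptors of sphingosine-1-phosphate S1pr1, S1pr2 and S1pr3 fell (-0.33, -0.83 and -1.18), with S1pr1, which keeps endothelial junctions closed, at 467 to 573 CPM under OGD/R against 619.7 to 663 CPM under normoxia. Acer2, a ceramidase, and Plpp1, a lipid phosphatase, fell too (-0.66 and -0.44). For axon guidance cues that also act on vessels, 5 of 38 tested genes, out of 48 listed, rose and 9 fell (13.2% and 23.7%). The difference from the shares over all genes was not tested. Sema6b, Sema4b, Ntn4 and Plxnd1 fell (-0.40, -0.55, -0.82 and -0.45), and Nrp1, a co-receptor of Vegfa, rose (0.30), though not on the deposited scale (limma adjusted p from 0.0973 to 0.146).

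For regulators of G protein signalling, 0 of 9 tested genes, out of 19 listed, rose and 3 fell, too few to set against those shares, with Rgs20, Rgs2 and Rgs12 at -0.99, -0.78 and -0.45 on the log2 scale. For cyclic nucleotide enzymes, 0 of 18 tested genes, out of 34 listed, rose and 5 fell. Npr2, the receptor that makes cyclic GMP, had 39.4 to 54 CPM under OGD/R against 65.6 to 89.9 CPM under normoxia (log2 fold change -0.74), and Pde7b, Pde10a and Adcy6 had -1.04, -0.75 and -0.52. For prostanoids, 5 of 13 tested genes, out of 28 listed, rose and 3 fell. Slco2a1, which takes prostaglandins up, had 7.59, 8.98 and 18.9 CPM in OGD/R libraries, against 23.1, 31.2 and 35.4 CPM in normoxia libraries (log2 fold change -1.51 ± 0.18 SE, edgeR adjusted p = 5.8e-07), and Tbxas1, thromboxane synthase, rose to 3.14 to 6.49 CPM under OGD/R against 1.56 to 2.68 CPM under normoxia. For FGF and EGF family ligands and related factors, 3 of 21 tested genes, out of 38 listed, rose and 7 fell. Pdgfb, which recruits pericytes, fell to 427 to 565 CPM under OGD/R against 645 to 749.8 CPM under normoxia, Fgf11 fell (-1.19), and Pdgfa and Fgfr2 rose (0.48 and 0.34).

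For ion pumps and pH regulation, 3 of 22 tested genes, out of 34 listed, rose and 4 fell. These shares, 13.6% and 18.2%, are close to the 18.9% and 16.7% of all tested genes. Atp2b4, a calcium pump, fell (-0.62 on the log2 scale). For zinc and metallothioneins, 4 of 22 tested genes, out of 27 listed, rose and 4 fell (18.2% each, close to those of all tested genes). The zinc carriers Slc39a4 and Slc30a1 were at -0.63 and -0.62. Among further named genes that rose, Sec61a1, Gja1, Lyz2, C1qa and Rpsa were not called by limma on the deposited scale, nor Lyz2 and C1qa by limma voom with sample weights, nor were Arrdc4 and Col5a3 there without a filter. Among those that fell, P4ha3, Sdc2 and Col1a1 were not called with OGD/R 3 and 5 left out together, nor P4ha3 with limma voom and sample weights, nor Col4a2 with the 2 groups fitted alone. The medians of the ion pump, zinc, retinoid, TNF, FGF and EGF, prostanoid, pericyte and neuron lists changed sign in at least 1 alternative analysis, so no direction is given for these lists.

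Among abundant genes, Vim, the intermediate filament of endothelium, had the largest gain in mean CPM of the called genes, with 4498, 5398 and 7014 CPM in OGD/R libraries, against 3885, 4053 and 4851 CPM in normoxia libraries (log2 fold change 0.40 ± 0.10 SE, edgeR adjusted p = 0.00205). Htra1, a secreted protease, had 1314 to 1527 CPM under OGD/R against 901 to 1135 CPM under normoxia, Hsp90ab1, a chaperone, 1322 to 1627 CPM under OGD/R against 1033 to 1171 CPM under normoxia, Calu, a calcium-binding protein of the secretory path, 1118 to 1267 CPM under OGD/R against 811 to 912 CPM under normoxia, and Ptma, a small nuclear protein, 579 to 964 CPM under OGD/R against 437 to 551 CPM under normoxia. Rpsa, a ribosomal protein with many processed copies, had 727 to 1245 CPM under OGD/R against 548 to 758 CPM under normoxia. It was not called when OGD/R 5 or any 1 of normoxia 1, 2, 4 or 6 was left out (edgeR adjusted p up to 0.107, against 0.0274 with all). Among the losses, Aplp2 and Itm2b, membrane proteins, had 1463 to 1829 CPM under OGD/R against 2030 to 2626 CPM under normoxia and 1132 to 1706 CPM under OGD/R against 1883 to 2103 CPM under normoxia, and Tp53i11, a p53-induced gene, 639 to 755 CPM under OGD/R against 1109 to 1250 CPM under normoxia.

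Families of genes that share the letters of their symbol were compared across the whole table, which needs no pathway list but can mix unrelated genes. The families named were picked as extremes among many small ones. Over all tested genes 18.9% rose and 16.7% fell. Of 127 families with at least 10 tested protein-coding members, the largest shares of genes that rose were in Exosc, the RNA exosome (8 of 10 rose and 0 fell), Mcm (8 of 10 rose and 0 fell), Psmd, the regulatory particle of the proteasome (9 of 14 rose and 0 fell), Nup, the nuclear pore (14 of 22 rose and 0 fell), Srsf, splicing factors (7 of 11 rose and 2 fell), and Timm, mitochondrial import (8 of 13 rose and 0 fell). Exosc2 had 46.9 to 59 CPM under OGD/R against 28.5 to 33.5 CPM under normoxia and Psmd1 267 to 312 CPM under OGD/R against 196 to 220.1 CPM under normoxia. Large shares that fell were in Col (2 of 26 rose and 18 fell), Kdm (1 of 17 rose and 11 fell), Irf (0 of 11 rose and 6 fell), Mtmr, phosphoinositide phosphatases (0 of 11 rose and 6 fell), and Klf (0 of 12 rose and 6 fell). The Irf letters also take in Irf2bp genes, and Irf2 itself had 52.7 to 67.7 CPM under OGD/R against 65.9 to 78.4 CPM under normoxia.

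Calls differed with level and gene type. With genes cut into 10 equal bins of mean level, 7.01% rose and 12.8% fell in the lowest bin, and 26.7% rose and 19.9% fell in the highest. The shares over all tested genes were 18.9% and 16.7%. Of 12700 protein-coding genes tested, 2382 rose and 2237 fell (18.8% and 17.6%). Of 287 long noncoding genes 26 rose and 38 fell (9.06% and 13.2%). Of 650 pseudogenes 149 rose and 25 fell (22.9% and 3.85%), which is uncertain since pseudogenes share reads with their parent genes. Of 197 structural and small noncoding genes 51 rose and 8 fell with OGD/R 3 (25.9% and 4.06%), and 13 rose and 18 fell without it.

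**Figure D4:**
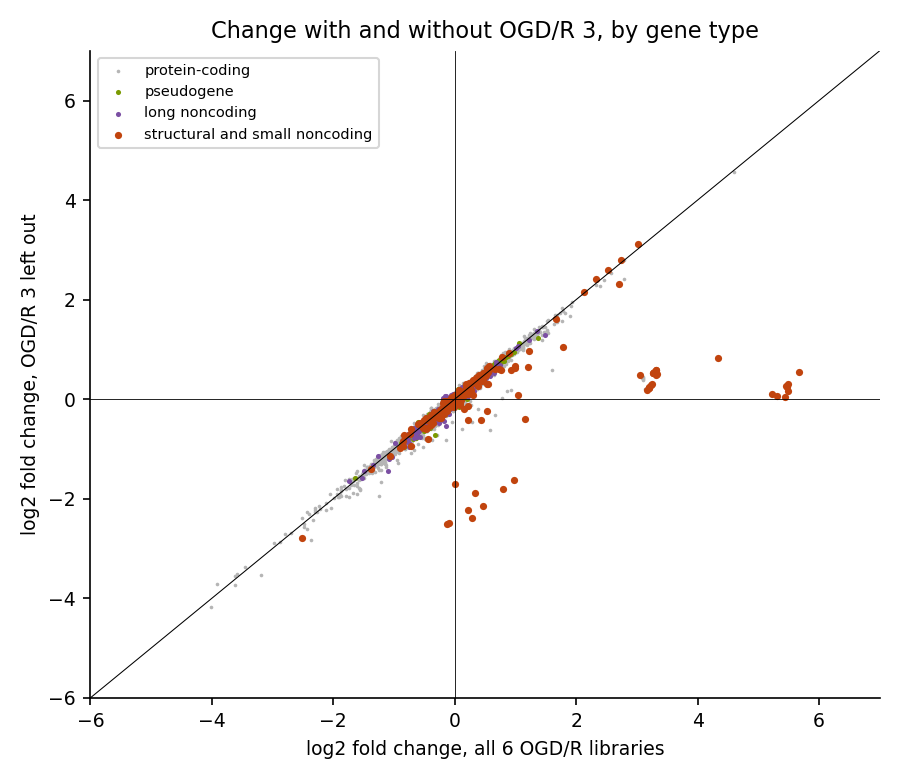
Log2 fold change of OGD/R over normoxia with all 6 OGD/R libraries (x axis) against that with OGD/R 3 left out (y axis), coloured by gene type, with the line of equality. Most protein-coding genes lie along the line, and structural and small noncoding genes (red) at an x value of 3 or more mostly drop to near 0 without OGD/R 3, while another group drops to values near -2.

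OGD/R 3 decided the calls of ribosomal and other structural RNA. A 5.8S ribosomal RNA gene, Rn5-8s, had 714 CPM in OGD/R 3, against 1.00 to 11.3 CPM among the remaining OGD/R libraries and 0.876 to 6.23 CPM in normoxia. Its log2 fold change was 5.67 with that library (edgeR adjusted p = 0.00638) and 0.55 without it (edgeR adjusted p = 0.56). Further copies named 5_8S_rRNA behaved alike, and 1 of them had 1191 CPM in OGD/R 3. Rpph1, the RNA of ribonuclease P, had 180.8 CPM in OGD/R 3, against 0.249 to 4.30 CPM among the remaining OGD/R libraries and 0 to 2.06 CPM in normoxia, and did not pass the filter without OGD/R 3. OGD/R 2 and normoxia 6 were the next highest for Rn5-8s and Rpph1.

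Copies of 7SK, the RNA that holds back transcription elongation, showed the reverse. Of 13 copies tested, 11 were highest in OGD/R 3, and edgeR called 0 with it in either direction (1 at an unadjusted p under 0.05), whereas 9 were called lower and 0 higher without it. A 7SK copy had 97.9 CPM in OGD/R 3, against 1.62 to 5.78 CPM among the remaining OGD/R libraries and 5.84 to 15.8 CPM in normoxia. Its log2 fold change was 0.97 ± 0.77 SE with OGD/R 3 (edgeR adjusted p = 0.347) and -1.63 without it (edgeR adjusted p = 0.00038). These copies are near-identical, so how their reads divide is uncertain. The libraries were made from poly-A RNA. How far reads of 7SK, Rpph1 or ribosomal RNA reflect their level in the cells was not tested.

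**Figure D5:**
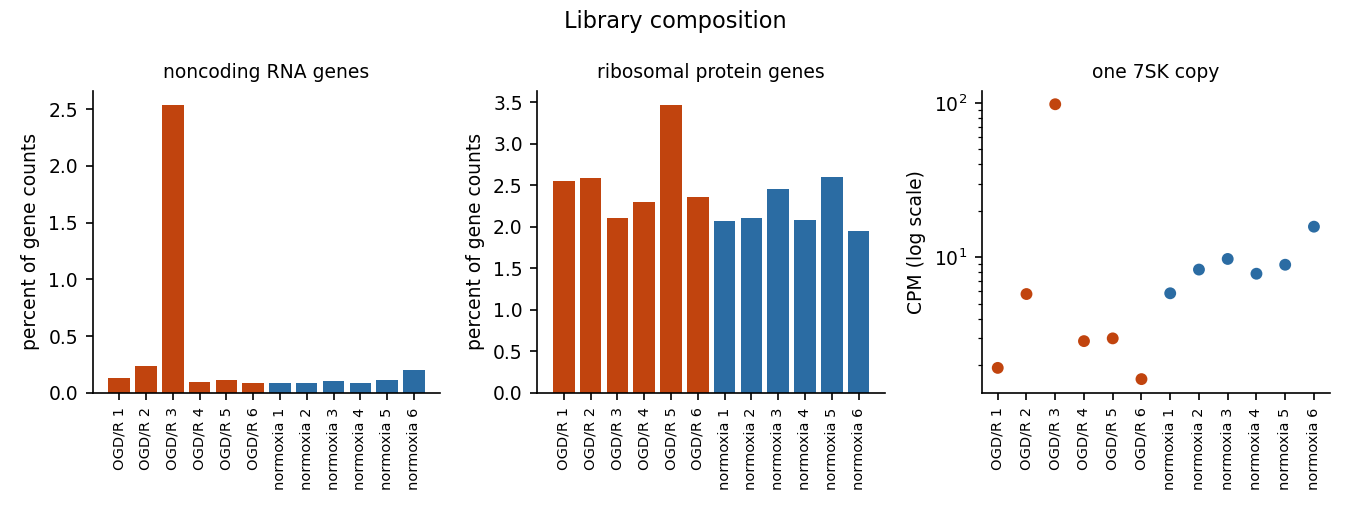
Percent of gene counts in noncoding RNA genes (left), percent in ribosomal protein genes (middle) and CPM of a 7SK copy on a log scale (right) in each library, OGD/R in red and normoxia in blue. OGD/R 3 stands out on the left at 2.54% and on the right at 97.9 CPM, and OGD/R 5 in the middle at 3.47%.

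The make-up of the libraries differed little otherwise. Protein-coding genes took 95.8% ± 0.981 of counts in OGD/R and 96.5% ± 0.139 in normoxia (SD, n = 6 each; adjusted p = 0.039 over 6 measures, two-sided exact permutation test). Without OGD/R 3 the shares were 96.2% ± 0.185 (SD, n = 5) and 96.5%, and the adjusted exact p was 0.0216. The 100 most counted genes held 18.4% ± 0.84 in OGD/R and 19.2% ± 0.528 in normoxia (adjusted exact permutation p = 0.192), and 18.1% ± 0.477 in OGD/R without OGD/R 3 (0.013). Genes with at least 1 CPM numbered 12929 ± 80.3 in OGD/R and 13013 ± 34.6 in normoxia (adjusted exact permutation p = 0.0779), and 12910 ± 73.8 in OGD/R without OGD/R 3 (0.0216). The shares of noncoding, mitochondrial and ribosomal protein genes did not pass this test with or without OGD/R 3 (adjusted exact p from 0.192 to 0.221 with it and from 0.0779 to 0.496 without it).

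OGD/R inserts varied more among themselves than normoxia inserts. Over 11339 genes whose mean reached 4 CPM, the median SD of log2 CPM was 0.168 in OGD/R, 0.174 without OGD/R 3, and 0.135 in normoxia. This was not tested. An SD over 1 was seen for 39 genes in OGD/R, 33 without OGD/R 3, and 30 in normoxia. With all OGD/R libraries the most variable genes were copies of 5.8S and 5S ribosomal RNA and Rpph1, and without OGD/R 3 the protein-coding Lyz2 and Inmt were among the most variable. Lyz2 was high in OGD/R 1, 2 and 3 and low in OGD/R 6.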

How the data were processed

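Poly-A RNA of the endothelial lysates was sequenced as single reads on a NextSeq 500 from directional libraries, per the labels' protocols. Per the submitters' processing notes, the build was Rnor_6.0 and the tools included RSEM 1.3.3, STAR 2.7.10a, DESeq2 1.38, cutadapt 3.4 and FastQC 0.11.9, whose roles are not stated. Whether counting used strand, and how reads shared by copies were placed, was not given in the sources used. The authors deposited a count table of whole reads for 32883 genes, of which 396 had no name, and 192 names had several identifiers. The authors also deposited a normalised table whose values were CPM relative to a larger read total, and 100% of them corresponded to a whole number of reads within 0.01 of a read. The scale for those reads was taken from the counts, and the reads equalled the counts for 100% of genes. A count test on them therefore had to give the same 2608 genes higher and 2308 lower.

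Libraries were grouped by title. Counts were filtered with filterByExpr (minimum count 10), scaled by TMM, and fitted in edgeR 4.0.16 (limma 3.58.1, R 4.3.3) with all 4 groups sharing 1 estimate of the spread. P-values were adjusted by Benjamini-Hochberg over all genes tested, with a threshold of 0.05, and every adjusted p of a gene comes from edgeR unless another tool is named. CPM values are TMM-scaled, and fold changes are OGD/R over normoxia on the log2 scale. The procedure was tested on simulated data. Alternatives were DESeq2 1.42.0, other scalings and filters, limma on log2 of the deposited CPM with a pseudocount, left-out libraries and a replicate block.

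The gene lists and the comparison were chosen with earlier results of these data known. Among protein-coding genes called with and without OGD/R 3, whose mean reached 4 CPM and whose symbol was not provisional, the rule named the 15 largest rises and falls, the 10 smallest p and the 10 largest CPM differences in each direction. It added the 2 smallest p of each list, Cldn5, Cdh5, Ocln, Vegfa and Hif1a, and the 6 noncoding genes that dropped most without OGD/R 3. Further members of lists and families, the noncoding genes Rn5-8s, Rpph1 and 7SK, and the printed promoters were chosen after their values were seen. A few genes and 1 list that the rule names are not reported here.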

Additional observations from a re-analysis of the deposited data

Results flagged for a closer look

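Single libraries far from the other 5 of their group were looked for in 422 groups of 6, made of the named genes and the library measures. A value was listed where its gap to the nearest library, divided by the range of the group, exceeded the 95% critical value of Dixon's test, and 53 groups did. Chance gives about 1 in 20 groups, and genes are not independent.

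OGD/R 3 had the highest share of counts in noncoding RNA genes, 2.54%, with a quotient of 0.941. Normoxia 6 had the highest share of counts in noncoding RNA genes, 0.203%, with a quotient of 0.782. OGD/R 5 had the highest share of counts in ribosomal protein genes, 3.47%, with a quotient of 0.651. Normoxia 5 had the highest share of counts in the 100 most counted genes, 20.2%, with a quotient of 0.665. OGD/R 3 had the lowest share of counts in protein-coding genes, 93.8%, with a quotient of 0.823.

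For genes the number in brackets is the quotient. In OGD/R 1 lay the highest value of its group for Akr1c15 (0.696) and Fbln5 (0.702). In OGD/R 2 lay the highest value of its group for P4ha3 (0.648). In OGD/R 3 lay the highest value of its group for Rpph1 (0.978), 7SK (0.957) and Rn5-8s (0.986). In OGD/R 5 lay the highest value of its group for Ca4 (0.669), Lcn2 (0.786), Tuba1a (0.682), Rpsa (0.781), Tbxas1 (0.67) and Plpp1 (0.68). The same library held the highest value of its group for Srm (0.739) and Ran (0.794). In OGD/R 5 lay the lowest value of its group for Fgfr2 (0.724), Kdm4b (0.862), Sulf2 (0.69), Ace (0.627) and Irf2 (0.712). In OGD/R 6 lay the lowest value of its group for Depp1 (0.698). In OGD/R 6 lay the highest value of its group for Calu (0.741) and Slco2a1 (0.71). In normoxia 1 lay the highest value of its group for Itgax (0.64) and C1qa (0.809). In normoxia 2 lay the highest value of its group for Tnfsf10 (0.632) and Pc (0.688). In normoxia 3 lay the highest value of its group for Stmn2 (0.81) and Aqp1 (0.695). In normoxia 4 lay the highest value of its group for Akr1c15 (0.741). In normoxia 4 lay the lowest value of its group for Zfp367 (0.715). In normoxia 5 lay the lowest value of its group for Cyp1a1 (0.667), Tril (0.636), Myrip (0.733), Per1 (0.658), Sema6b (0.732) and Npr2 (0.677). The same library held the lowest value of its group for Pdk4 (0.701), Klf9 (0.646) and Col15a1 (0.647). In normoxia 5 lay the highest value of its group for Gins1 (0.701), Fos (0.867), Fbln5 (0.769), Htra1 (0.6253), Snrpa (0.717) and Tubb6 (0.723). The same library held the highest value of its group for Cdt1 (0.724). In normoxia 6 lay the highest value of its group for Rpph1 (0.842) and Rn5-8s (0.67).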

How the results depend on the processing

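The count of genes called higher (2608) stayed between 1951 and 3196 and that called lower (2308) between 1985 and 2979 with DESeq2, its size factors, limma voom with sample weights, other count filters, the 2 groups fitted alone, protein-coding genes alone, and OGD/R 3 and 5 left out together. Leaving out 1 library at a time gave 2106 to 2664 higher and 1951 to 2586 lower, 106 to 162 higher by 2-fold or more and 220 to 266 lower by 2-fold or more. Limma on the deposited CPM called 1286 higher with a pseudocount of 1, 1276 with 0.1 and 1213 without a filter, and 35.5%, 35.8% and 34.1% of its calls were higher, against 53.1%. Testing against a 1.5-fold change called 113 higher and 172 lower. Calls at 2-fold or more, 153 higher and 241 lower, came to 258 higher without a filter, 82 higher and 123 lower with at least 50 counts in at least 5 libraries, 98 higher with the 2 groups alone and 92 higher with these and OGD/R 3 left out, a choice added after seeing the data. On the deposited CPM they came to 29, 49 and 29 higher, and to 113 lower with a pseudocount of 1 and 114 lower without a filter. The cause was not tested. The 7SK copy reversed without OGD/R 3, at -1.63 (range -1.63 to 1.22 over the 12 left-out libraries), at -1.62 without OGD/R 3 and 5, and at -1.62 with the 2 groups alone and OGD/R 3 left out, but not with the 2 groups alone (0.97). Structural and small noncoding genes numbered 13 higher and 18 lower without OGD/R 3. The largest share of a symbol family that rose was 8 of 10 genes, and 63.6% with at least 20 members. Leaving out 1 library, the OGD/R minus normoxia difference ranged from -103 to -55.8 genes with at least 1 CPM. In percentage points it ranged from -0.516 to -0.180 for mitochondrial genes, 0.0186 to 0.508 for noncoding, -0.826 to -0.318 for protein-coding, 0.169 to 0.440 for ribosomal protein and -1.05 to -0.544 for the 100 most counted genes. With the replicate number as a block 2754 genes were higher and 2455 lower, but correlations of same-numbered libraries ran from -0.188 to 0.415 and only 2 of 6 OGD/R libraries correlated best with their own number, so the numbers were not taken as pairs. Low genes limit the precision, and 12.8% fell and 7.01% rose in the lowest of 10 bins by level.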
